A study of Homo sapiens with 6 samples.

Results

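The genes described here are the LC3 and GABARAP family and the autophagosome genes that act with it, 10 protein-coding genes among the 11187 of the deposited table. They were taken by gene symbol: MAP1LC3B, GABARAP, GABARAPL1 and GABARAPL2 of the family, and SQSTM1, DRAM1, ULK1, ATG5, ATG7 and BECN1. RNA sequencing compared 2 groups of AGS cells, an established epithelial line from a human gastric adenocarcinoma, grown with fetal bovine serum. One group was transiently transfected with miR-3648 mimics and the other with NC, the negative control. Each group held 3 libraries, and the study screened for genes that differ between them. The mimic dose, the time of harvest, the level of miR-3648 itself and whether replicates were separate cultures were not stated in the labels, so the spread between libraries may be technical. The set was chosen by the FPKM difference between mimic and NC libraries in earlier results, where MAP1LC3B and DRAM1 stood out, together with textbook partners, so the group differences are described and nothing is supported with them.

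In autophagy a double membrane grows around cytoplasm, closes into an autophagosome and fuses with a lysosome, where the cargo is broken down. ULK1 and its partners start the process, the lipid kinase complex of BECN1 marks the membrane, and ATG7 and ATG5 take part in joining LC3 and GABARAP proteins to a membrane lipid. Membrane-bound LC3 then holds cargo receptors such as SQSTM1, and LC3B is the usual marker of autophagosomes. Transcript levels, which are what was measured here, do not show how much autophagosomes form or turn over.

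The mimic sequence was compared with the transcripts of the 10 genes, since a microRNA acts mainly through bases 2 to 8, its seed. The mature miR-3648 of RefSeq (chr21:8987026-8987046 on GRCh38.p14, plus strand) is shown with its seed in capitals.
hsa-miR-3648: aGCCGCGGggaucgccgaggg
The match to the whole seed is CCGCGGC, and the shorter 6-base match is CGCGGC. In GENCODE v29 transcripts no 3' UTR of the 10 genes held the 7-base match, nor CGCGGCA, the other 7-base form, and one of these forms is present in 2.18% of the 10993 listed genes with a 3' UTR. The 3' UTR of ULK1, which is 1806 bases long, and that of ATG7, of 2822 bases, each held 1 match of 6 bases, found in 3.98% of 3' UTRs. MAP1LC3B had a 3' UTR of 1682 bases with no match, and 1 match of 6 bases in its 5' UTR. DRAM1 had no match of either length anywhere in a 3' UTR of 2363 bases, a coding sequence of 717 bases and a 5' UTR of 439 bases. Matches in a coding sequence or 5' UTR were common, at 42.3% of genes for 6 bases and 23.6% for the whole seed. The 3' UTR matches and, as examples of the others, 4 matches elsewhere are printed below with up to 12 bases on either side, the match in capitals. ULK1 held 2 further matches in its 5' UTR, 1 of them to the whole seed, and SQSTM1 held 1 further 6-base match in its 5' UTR and 1 in its coding sequence.
MAP1LC3B 5' UTR: tcccggagacggCGCGGCctgccctgcgcg
GABARAPL2 5' UTR: tgcgctgagctCCGCGGCtccgcgagccgg
SQSTM1 coding sequence: cagaggctgacCCGCGGCtgattgagtccc
ULK1 coding sequence: atggagcccggCCGCGGCggcacagagacc
ULK1 3' UTR: tcttgcttccgtCGCGGCcgcatgtgcgtg
ATG7 3' UTR: cactgcaggcagCGCGGCtctgggaagaac
The 3' UTR matches of ULK1 and ATG7 begin at bases 1610 and 1390 of the UTR, and the 5' UTR match of MAP1LC3B begins at base 35. GABARAP, GABARAPL1, ATG5 and BECN1 had no match of 6 bases in any of the regions searched. A match is a description of the letters and not evidence of binding.

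Values are FPKM, sequenced fragments per unit of transcript length and of library total, computed by the authors, so levels of different genes can be compared per length. Summed over the listed genes, FPKM ran from 208274 to 222947 per library, and the depth of the libraries is unknown. Fold changes are mimic minus NC means of log2(FPKM + 1), with the standard error (SE) of a limma fit over all 10286 genes with a mean of at least 1 FPKM. NC replicate 3 stood apart, with a correlation of log2(FPKM + 1) of 0.971 and 0.964 to the other NC libraries and of 0.978 to 0.979 to the mimic libraries. The epithelial markers EPCAM, KRT8, KRT18 and KRT19 were high in all libraries, while CDH1 lay between 2.48 and 4.2 FPKM and CLDN4 between 0.841 and 8.55 FPKM. Of 5 markers each of leukocytes, fibroblasts and endothelium, 2, 1 and 1 were listed. The leukocyte sum (CD68 and LYZ) was 6.41 to 7.33 FPKM in NC libraries and 5.03 to 5.51 FPKM in mimic ones. Within it only LYZ was apart, at 5.01 to 5.5 FPKM in NC and 3.69 to 4.14 FPKM in mimic libraries. CD68 overlapped, at 1.17 to 2.32 and 1.22 to 1.49 FPKM. The fibroblast marker COL1A1 was at 1.07 to 1.48 and 0.94 to 0.998 FPKM, lower in mimics without overlap. Over all tested genes, 13.5% were lower in mimics without overlap. The endothelial marker ESAM was at 1.95 to 2.96 and 1.87 to 2.84 FPKM. Their part in the results was not tested. In bulk RNA fewer cells with a transcript and less transcript per cell cannot be told apart.

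Of the 10 genes, MAP1LC3B and DRAM1 fell with the mimics and the other 8 did not pass the test, against 0.408% of the 10286 genes that passed in either direction and 0.175% that passed as lower. Since the contrast was known when the genes were chosen, nothing is read from this count. The groups did not overlap for 3 of the 10, MAP1LC3B, DRAM1 and ULK1, all lower in mimics, where 22.2% of all tested genes had groups that did not overlap and 13.5% did so as lower. All 10 lay above 1 FPKM in every library and passed the filter on low values. Their log2 fold changes had a median of -0.09, with 6 negative and 4 positive, beside a median of -0.0046 over all tested genes, 51.0% of which were negative.

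MAP1LC3B (ENSG00000140941, GRCh37 chromosome 16, 87417601 to 87438385, plus strand) encodes LC3B. It was at 20.6, 21.1 and 18.6 FPKM in NC replicates 1 to 3 and at 8.86, 9.37 and 8.73 FPKM in mimic replicates 1 to 3. Every mimic library lay far below every NC library, and the spread within each group was small. The means were 20.1 ± 1.3 and 8.99 ± 0.338 FPKM (SD, n = 3 each), so the mimic mean was 44.7% of the NC mean. The log2 fold change was -1.08 (SE 0.08), the 11th lowest of the 10286 tested genes. Without NC replicate 3 it was -1.13. MAP1LC3B overlaps FBXO31, a gene of the other strand, over 8148 bases, and whether strand was used in the quantification is unknown. FBXO31 was at 5.13 to 6.93 FPKM in the control libraries, against 3.92 to 5.46 FPKM with the mimics, and its part in the values of MAP1LC3B was not tested. MAP1LC3B also has near-identical copies in the genome, MAP1LC3B2 and a processed pseudogene, which can share its reads. MAP1LC3B2 was not among the listed genes, and the pseudogene was not analysed here.

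**Figure D1:**
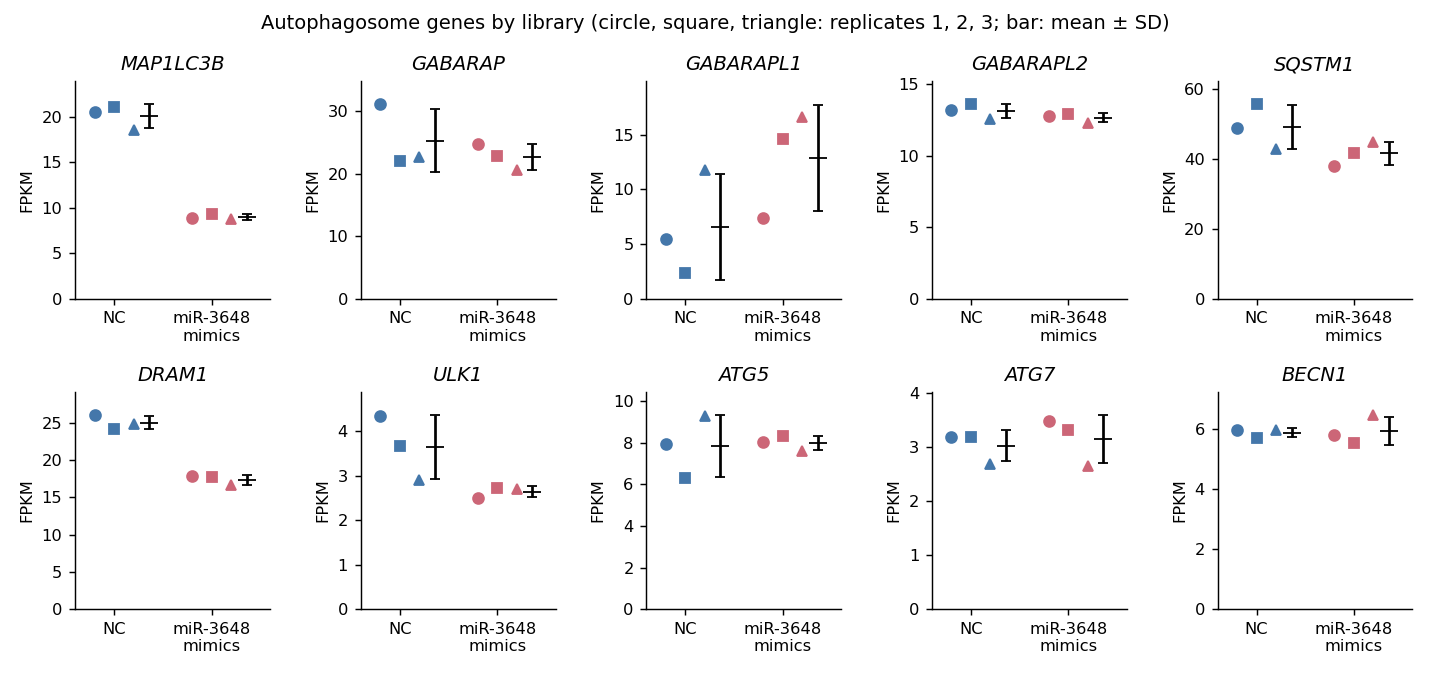
FPKM (vertical axes, each from 0) of the 10 genes in the 3 NC and 3 mimic libraries, with the symbol giving the replicate and the black bar the mean ± SD. MAP1LC3B and DRAM1 show 2 tight, separate groups, GABARAPL1 spans 2.31 to 16.6 FPKM, and BECN1 and GABARAPL2 are nearly level.

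The 3 GABARAP genes, whose proteins share the fold and lipid attachment of LC3, did not follow MAP1LC3B. GABARAPL2 (ENSG00000034713, chromosome 16, 75600249 to 75611779) was at 13.2, 13.6 and 12.6 FPKM in the control libraries, against 12.8, 12.9 and 12.3 FPKM with the mimics. Its groups overlapped, and the log2 fold change was -0.05 (SE 0.07). Its spread within groups was among the smallest of the table, an SD of 0.04 log2 units that lay at the 3.5 percentile of tested genes. GABARAPL2 carries a whole-seed match in its 5' UTR, as printed above.

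GABARAPL1 (ENSG00000139112, chromosome 12, 10365057 to 10375729) was at 5.48, 2.31 and 11.8 FPKM in the control libraries, against 7.36, 14.6 and 16.6 FPKM with the mimics. The groups overlapped, since NC replicate 3 lay above mimic replicate 1. The means were 6.54 ± 4.84 and 12.9 ± 4.87 FPKM (SD, n = 3 each), and the log2 fold change of 1.02 had an SE of 0.5. The size of that difference is close to that of MAP1LC3B in the other direction, but its error is much larger. Its within-group SD of 0.8 log2 units lay at the 99.2 percentile of tested genes, where the median SD was 0.129. The log2 fold change was 1.51 without NC replicate 3 and 0.53 without NC replicate 2. GABARAPL1 has a near-identical processed pseudogene, GABARAPL3, that can share its reads and was not among the listed genes.

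GABARAP (ENSG00000170296, chromosome 17, 7143333 to 7146089, minus strand) was at 31.1, 22.1 and 22.6 FPKM in the control libraries, against 24.8, 22.8 and 20.6 FPKM with the mimics. NC replicate 1 lay above the other 5 libraries, and the groups overlapped. The log2 fold change was -0.13 (SE 0.14), and it was 0.02 without NC replicate 1. The listed gene AC120057.3 overlaps GABARAP over 2344 bases on the same strand. It was listed at 0 FPKM in NC replicate 1, where GABARAP was highest, and at 12.1 to 14.0 FPKM in the other 5 libraries. The summed FPKM of both genes was 31.1, 36.1 and 34.7 in NC and 38.6, 36.8 and 33.4 in mimic libraries, with overlapping groups and a log2 fold change of 0.09. This sum, chosen after the data were seen, adds values that are scaled by different lengths and is not a count of reads.

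**Figure D2:**
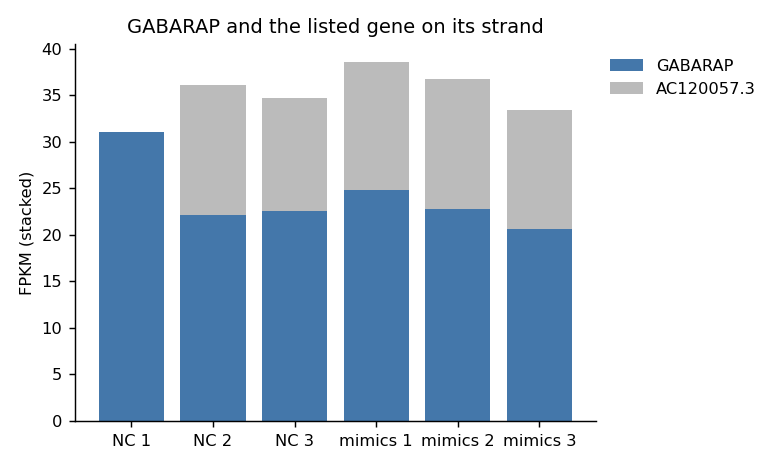
FPKM (vertical axis, from 0, stacked) of GABARAP and of AC120057.3, the listed gene on the same strand that overlaps it, in each of the 6 libraries. AC120057.3 is listed at 0 in NC replicate 1, the library with the highest GABARAP value of 31.1 FPKM.

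The order of the 4 family genes by FPKM differed between the groups. In all 3 NC libraries GABARAP was highest and MAP1LC3B the second, followed by GABARAPL2 and GABARAPL1. In mimic libraries MAP1LC3B was the third in replicate 1 and the lowest in replicates 2 and 3. MAP1LC3B held 29.3%, 35.7% and 28.3% of the summed FPKM of the 4 genes in NC and 16.5%, 15.7% and 15.0% in mimic libraries. GABARAPL1 held 7.79%, 3.92% and 18% in NC and 13.7%, 24.4% and 28.5% in mimic libraries, and these ranges overlapped. The sum itself was 70.4, 59.0 and 65.7 FPKM in the control libraries, against 53.7, 59.7 and 58.3 FPKM with the mimics, which overlapped as well. The sum is raised in NC replicate 1 by the GABARAP value given above. MAP1LC3A, MAP1LC3C, MAP1LC3B2 and GABARAPL3 were looked for by symbol and were not among the listed genes, so the shares cover the 4 genes above only.

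**Figure D3:**
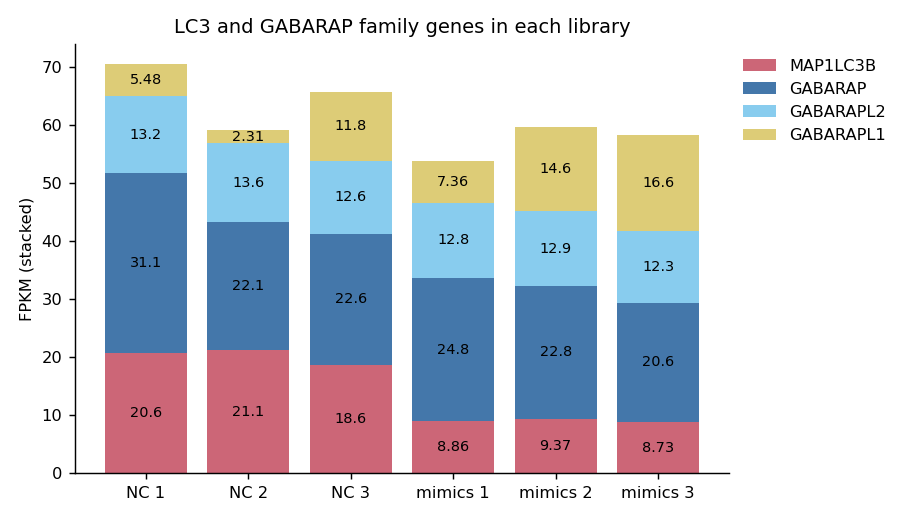
FPKM (vertical axis, from 0, stacked) of MAP1LC3B, GABARAP, GABARAPL2 and GABARAPL1 in each of the 6 libraries, with each value printed in its bar. The MAP1LC3B segment is 18.6 to 21.1 FPKM in the control libraries, against 8.73 to 9.37 FPKM with the mimics, while the GABARAPL2 segment stays between 12.3 and 13.6 FPKM.

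SQSTM1 (ENSG00000161011, chromosome 5, 179233398 to 179265078) encodes p62, a receptor that carries ubiquitin-tagged cargo to LC3. It was the most abundant of the 10 genes, at 49.0, 55.7 and 43.0 FPKM in the control libraries, against 38.1, 41.9 and 44.9 FPKM with the mimics. The groups overlapped, since mimic replicate 3 lay above NC replicate 3. The log2 fold change was -0.23 (SE 0.11), and it was -0.32 without NC replicate 3. The transcript is rich in GC, at 58.0% against a median of 48.6% over tested genes, and with a correction for GC content the log2 fold change was -0.15.

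DRAM1 (ENSG00000136048, chromosome 12, 102271129 to 102405908) encodes a lysosomal membrane protein induced by p53 that takes part in autophagy. It was at 26.0, 24.2 and 24.8 FPKM in the control libraries, against 17.8, 17.7 and 16.6 FPKM with the mimics. The groups were tight and did not overlap, and the mimic mean was 69.4% of the NC mean. The log2 fold change was -0.50 (SE 0.07), rank 144 from the lowest of the tested genes. It ranged from -0.53 to -0.47 over the processing alternatives, but its adjusted p lay close to the threshold, and the call was lost when NC replicate 1, NC replicate 2 or any single mimic library was left out, after quantile normalization, without the intensity trend of the fit, and with the replicate number as a block, with or without GC correction. Without NC replicate 3 DRAM1 was called, in a setting where 14.8% of all tested genes passed, and the log2 fold change was -0.51.

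ULK1 (ENSG00000177169, chromosome 12, 132379196 to 132407712) encodes the kinase that starts autophagosome formation. It was at 4.34, 3.66 and 2.91 FPKM in the control libraries, against 2.49, 2.73 and 2.70 FPKM with the mimics. The groups did not overlap, although NC replicate 3 lay nearer to the mimic libraries than to NC replicate 1. The log2 fold change was -0.34 (SE 0.12) and did not pass the test. Without NC replicate 3 it was -0.46 and passed, in a setting where 14.8% of all tested genes passed. ULK1 had the highest GC content of the 10 transcripts, 64.2%, and with GC correction its log2 fold change was -0.20, or -0.23 with GC correction and without NC replicate 3, and it did not pass in either.

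BECN1, ATG5 and ATG7 had log2 fold changes near 0. BECN1 (ENSG00000126581, chromosome 17, 40962152 to 40985367), the scaffold of the class III PI3K complexes, was at 5.98, 5.70 and 5.98 FPKM in the control libraries, against 5.80, 5.54 and 6.47 FPKM with the mimics. ATG7 (ENSG00000197548, chromosome 3, 11313995 to 11599139), the enzyme that activates LC3 for its attachment to lipid, was at 3.19, 3.18 and 2.69 FPKM in the control libraries, against 3.49, 3.31 and 2.65 FPKM with the mimics. The groups of both genes overlapped, with log2 fold changes of 0.01 (SE 0.08) and 0.04 (SE 0.11). ATG7 carries a 6-base match in its 3' UTR, and its mimic mean was 104% of its NC mean. ATG5 (ENSG00000057663, chromosome 6, 106493298 to 106773666), which is joined to ATG12 and helps place LC3 on the membrane, was at 7.91, 6.32 and 9.27 FPKM in the control libraries, against 8.03, 8.31 and 7.61 FPKM with the mimics. All mimic values of ATG5 lay within the NC range, and the log2 fold change was 0.04 (SE 0.13). It was -0.09 with GC correction and -0.09 without NC replicate 2. BECN1 overlaps PSME3, a gene of the other strand at 33.27 to 38.55 FPKM over the libraries, along 8966 bases. ATG5 overlaps PRDM1, also of the other strand and at 3.52 to 4.04 FPKM, along 23620 bases. The part of PSME3 and PRDM1 in these values was not tested.

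**Figure D4:**
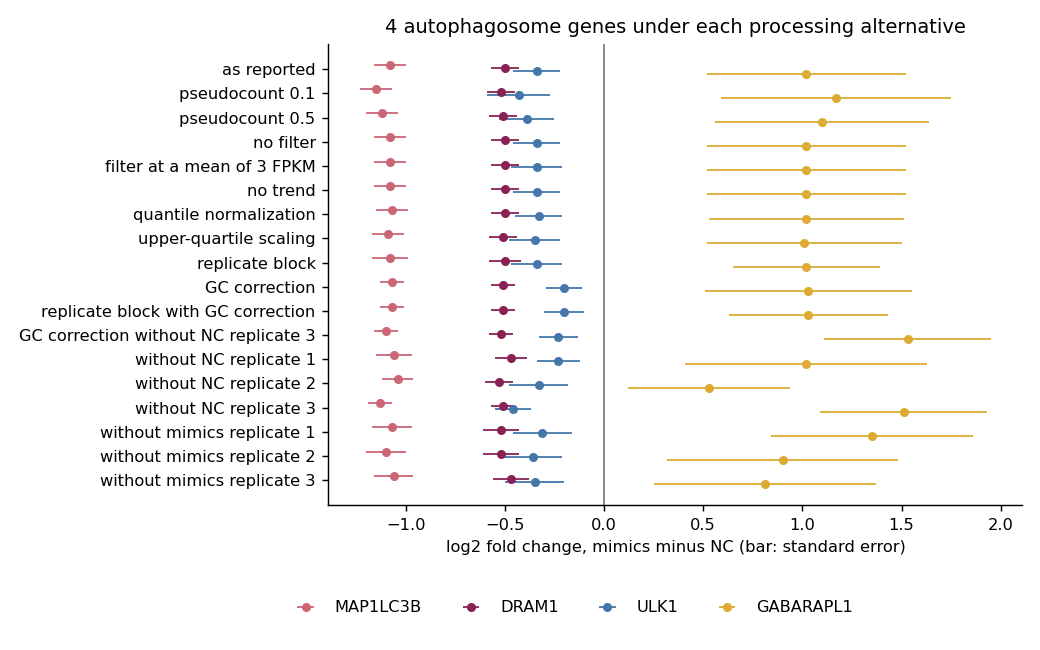
Log2 fold change (horizontal axis, mimics minus NC, with the standard error as a bar) of MAP1LC3B, DRAM1, ULK1 and GABARAPL1 in the fit as reported and in each processing alternative. MAP1LC3B stays between -1.15 and -1.04 and DRAM1 between -0.53 and -0.47, while GABARAPL1 ranges from 0.53 to 1.53 with wide bars.

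Other genes of the pathway were taken from lists by textbook role, 105 listed genes of which 4 lay under the filter. None of those tested passed the limma test after adjustment, where 0.408% of all tested genes passed. At that share a list of this size can be without a call, so no lack of change is read from it. An unadjusted p under 0.05 was found for 13 (12.9%), against 14.6% of all tested genes. Of the tested genes, 62 had a negative and 39 a positive log2 fold change, or 57 and 44 with GC correction. Their median was -0.06, or -0.04 with GC correction, beside -0.0046 over all tested genes, 51.0% of which were negative. Groups did not overlap for 16 genes lower and 5 genes higher in mimics, 20.8% of those tested against 22.2% of all tested genes.

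Among the genes that start and feed the growing membrane, VMP1, an endoplasmic reticulum protein needed for autophagosome formation, was at 22.0, 22.8 and 27.0 FPKM in the control libraries, against 34.3, 34.5 and 36.2 FPKM with the mimics. All mimic values were higher, with a log2 fold change of 0.54 (SE 0.09, limma adjusted p = 0.0893). The other 7 tested genes of the class III PI3K list, which included VMP1, had 3 positive and 4 negative values. Of the 3 tested partners of ULK1, ATG101 had the smallest p, at 10.3 ± 1.06 and 9.28 ± 0.697 FPKM (SD, n = 3 each, limma adjusted p = 0.543). All 8 tested genes of the ATG9, ATG2 and WIPI list, which supply and shape membrane, had negative values with a median of -0.12. After quantile normalization or GC correction 7 of the 8 did, and 6 of the 8 with GC correction without NC replicate 3. Leaving out any single library except NC replicate 2 also gave 7 of the 8. Among the 8, ATG2B was nearly level, with a mimic mean of 98.5% of its NC mean. WDR45B had a log2 fold change of -0.12 with an SE of 0.47. In that list ZFYVE1, a marker of the sites where autophagosomes form, was at 4.71 ± 0.114 FPKM in the control libraries, against 3.42 ± 0.0867 FPKM with the mimics (SD, n = 3 each, log2 fold change -0.37, limma adjusted p = 0.135).

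Among the enzymes that process and attach LC3, 4 of 8 tested genes had positive and 4 negative values. ATG4D, a protease that cuts LC3 and GABARAP proteins, was at 7.33 ± 0.781 FPKM in the control libraries, against 5.50 ± 0.277 FPKM with the mimics (SD, n = 3 each, log2 fold change -0.35, limma adjusted p = 0.213). With GC correction the log2 fold change of ATG4D was -0.21. The other cargo receptors had 6 positive and 10 negative values among 16 tested genes. NBR1, a receptor related to SQSTM1, was at 16.5 ± 0.487 and 14.7 ± 0.785 FPKM (SD, n = 3 each, log2 fold change -0.16, or -0.20 with GC correction, limma adjusted p = 0.369 without it). Of the 15 tested genes for fusion with lysosomes, 6 were positive and 9 negative, or 9 positive and 6 negative with GC correction without NC replicate 3. VPS16, a subunit of the tethering complexes, was at 15.9 ± 0.513 and 13.7 ± 0.624 FPKM (SD, n = 3 each, limma adjusted p = 0.289). Its log2 fold change was -0.20, or -0.12 with GC correction and -0.06 with GC correction without NC replicate 3. VPS16 overlaps PTPRA on the same strand, which was at 30.6 to 31.8 FPKM in the control libraries, against 25.8 to 26.7 FPKM with the mimics.

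**Figure D5:**
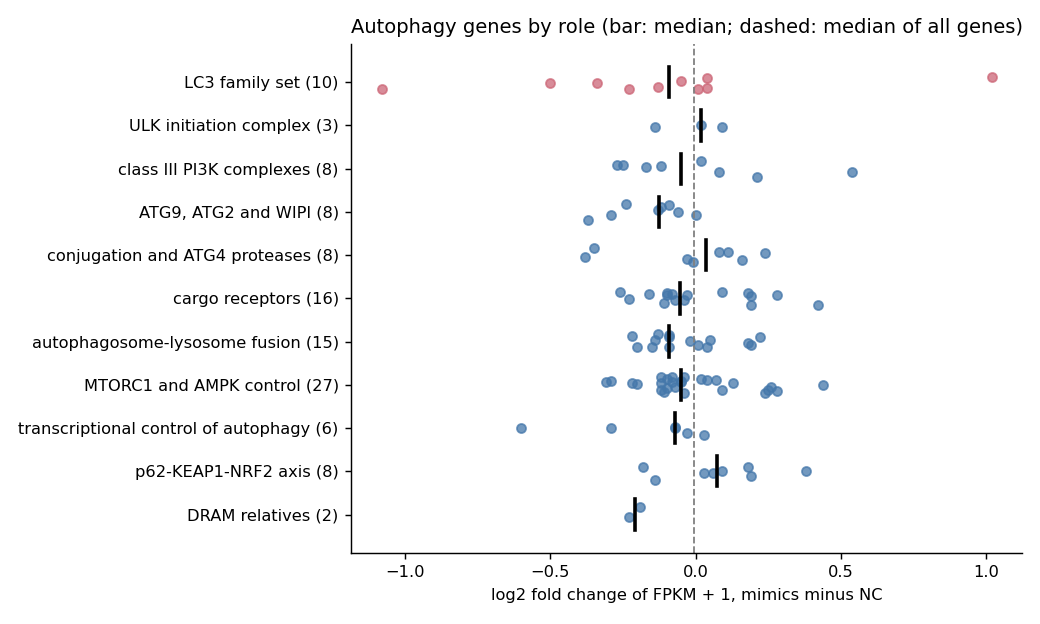
Log2 fold change (horizontal axis, FPKM + 1, mimics minus NC) of each tested gene of the LC3 family set and of the lists of other autophagy genes, with the number of genes in brackets, a black bar at the list's median and a dashed line at the median of all tested genes. MAP1LC3B at -1.08 and GABARAPL1 at 1.02 lie outside the range of all the other lists, which runs from -0.60 for TP53INP2 to 0.54 for VMP1.

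The nutrient-sensing genes of MTORC1 and AMPK, which hold back or start autophagy through ULK1, had 10 positive and 17 negative values among 27 tested genes, and 15 positive and 12 negative with GC correction. LAMTOR5, a subunit of the lysosomal Ragulator complex, was at 19.7, 22.8 and 22.3 FPKM in the control libraries, against 27.3, 29.5 and 32.0 FPKM with the mimics, with groups apart and a log2 fold change of 0.44 (SE 0.09, limma adjusted p = 0.139). With GC correction the log2 fold change of LAMTOR5 was 0.46. Of the 6 tested genes of transcriptional control, 5 were negative. TP53INP2, whose protein binds LC3 and GABARAP proteins and takes part in autophagosome formation, was at 6.97, 6.88 and 5.77 FPKM in the control libraries, against 3.76, 4.07 and 4.03 FPKM with the mimics. Its groups did not overlap, and its log2 fold change of -0.60 (SE 0.09, limma adjusted p = 0.0727) was rank 75 from the lowest of all tested genes. TP53INP2 overlaps NCOA6, a gene of the other strand, over 9150 bases. NCOA6 was at 13.08 to 15.47 FPKM in the control libraries, against 11.85 to 12.66 FPKM with the mimics. Its part in the values of TP53INP2 was not tested. In the axis of p62, KEAP1 and NRF2, in which SQSTM1 binds the NRF2 inhibitor KEAP1, 6 of 8 tested genes were positive with a median of 0.08, and 3 of 8 without NC replicate 3. GCLM, an NRF2 target for glutathione synthesis, was at 11.3 ± 1.42 and 14.9 ± 0.734 FPKM (SD, n = 3 each, log2 fold change 0.38, limma adjusted p = 0.21). With GC correction the log2 fold change of GCLM was 0.23, and 0.20 with GC correction without NC replicate 3. Both tested relatives of DRAM1 were lower without passing, while a further listed one, under the filter, had a mimic mean of 115% of its NC mean. TMEM150A was at 2.06 ± 0.163 and 1.68 ± 0.132 FPKM (SD, n = 3 each, limma adjusted p = 0.358). Its log2 fold change was -0.19, and -0.05 with GC correction without NC replicate 3. The groups of the other tested relative overlapped.

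The promoters of the 10 genes in RefSeq (GRCh38.p14, 250 bases before to 50 after the start) were searched for the E-box CACGTG, the core of the sites of TFEB, a transcription factor of autophagy and lysosome genes. All 10 genes matched, with 13 promoters, and 0 of them held CACGTG, a motif that reads the same on both strands and is in 7.26% of the 35116 promoters of the table. This concerns the letters of these windows only.

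The genes whose log2(FPKM + 1) followed MAP1LC3B most closely over the 6 libraries were MANSC1, RRP1B, ZNF768, KIF20A and CAST, with Pearson's r from 0.9938 to 0.9967. Those closest to DRAM1 were SERINC5, UCK1, CST4, TBC1D14 and ENTPD7, with r from 0.9911 to 0.9951. The values of MANSC1 were 6.11 ± 0.247 FPKM in the control libraries, against 2.57 ± 0.118 FPKM with the mimics, and those of SERINC5 were 24.8 ± 1.54 and 15.0 ± 0.333 FPKM (SD, n = 3 each). The r between MAP1LC3B and DRAM1 was 0.9843. With 2 groups of 3 libraries, any gene with a clean step between the groups has a high r, and 149 tested genes had an r over 0.95 to MAP1LC3B.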

How the data were processed

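The deposited table of the series holds FPKM per gene and library, as the authors made them, for 6 libraries of AGS cells, with group and replicate read from the sample titles. Per the submitters' processing notes, StringTie 1.3.3, cutadapt and GRCh37 were used. For the aligner, annotation release and strand setting, the answer is not given in the sources used here. No steps of whole reads were found among low values (of 312 genes below 0.5 FPKM in NC replicate 1 or 2, at most 3 shared a ratio to 4 digits), so depth is unknown and no count test was run. Groups were compared on log2(FPKM + 1) with limma 3.58.1 (R 4.3.3; trended prior variance; two-sided) and Benjamini-Hochberg adjustment over the 10286 genes with a mean of at least 1 FPKM, at a threshold of 0.05. The fit was also run on simulated data with independent noise in each library. That simulation held no outlying library and no trend with GC content, so it does not cover these features of the data. The log2 scale with a pseudocount of 1 understates changes of low genes.

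The members and lists were chosen with earlier results of these data known. Named are all members, the gene of smallest p of each list, some of the genes that overlap a member, and the 5 genes most like MAP1LC3B and DRAM1. ATG2B, ATG14, STBD1, VPS33A and WDR45B were named after their values were seen. So were the genes given as overlapping BECN1, ATG5, STBD1, TP53INP2, VPS16 and VPS33A. Matches to the seed were searched in GENCODE v29 transcripts matched by Ensembl identifier, 3' UTRs in the transcript with the longest one and other regions in that with the longest coding sequence. Coordinates are those of the table. GC correction subtracted a loess fit (span 0.5) on transcript GC content in each library, for 10211 genes.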

Additional observations from a re-analysis of the deposited data

How the results depend on the processing

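Over all genes, 42 passed, against 11 with the replicate number as a block, 115 with GC correction, 13 with the replicate block and GC correction together, 110 with GC correction without NC replicate 3, and 8 to 1527 when single libraries were left out, the highest without NC replicate 3. Of the members 2 passed, and 1, MAP1LC3B, without the trend, with quantile normalization, and with the replicate block, with or without GC correction, and 1 to 3 with single libraries left out: DRAM1 was lost without NC replicate 1, NC replicate 2 or any mimic library, and ULK1 was gained without NC replicate 3. Of the other autophagy genes (105 listed, 4 of them under the filter) 0 passed (limma), against 2 with GC correction (TP53INP2 and VMP1). With GC correction without NC replicate 3 the number was 3 (also ATG14). With single libraries left out the number was 0 to 16. The 16 passed without NC replicate 3, where 14.8% of all tested genes passed. They are therefore not read as a change particular to these genes. MAP1LC3B passed in all 17 alternatives, with a limma adjusted p from 0.00174 to 0.0495. DRAM1 passed in 8 of 17 (0.0185 to 0.28). Among the members, GABARAP, ATG5, ATG7 and BECN1, with log2 fold changes of -0.13 to 0.04, took the other sign in 1 or more alternatives, and the cause was not tested. Of the genes with the smallest p of each pathway list, none changed sign in any alternative. The replicate numbers showed no visible pairing of the libraries. Deviations from the group means of same-numbered libraries correlated at 0.04, -0.04 and 0.07, and NC replicate 2 correlated best with mimic replicate 1 (0.10). Whether same-numbered libraries were made together cannot be told from these values. Depth is unknown, and 3 libraries a group limit the precision.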

Other observations

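Some autophagy genes lay beside a listed gene of the same strand whose value switched between libraries, a pattern noticed after the values were seen. STBD1, a receptor for glycogen, was at 7.77, 2.12 and 4.18 FPKM in the control libraries, against 5.32, 8.53 and 4.65 FPKM with the mimics. The read-through gene FAM47E-STBD1, which overlaps it, was at 0.757, 6.41 and 0.827 FPKM in the control libraries, against 4.69, 0.851 and 5.11 FPKM with the mimics, so its high and low values occurred in both groups. VPS33A, a subunit of the tethering complexes for fusion with lysosomes, was lowest in NC replicate 3, at 4.41 FPKM against 5.46 to 7.10 FPKM in the other libraries. AC048338.1, which overlaps VPS33A, was at 5.26 FPKM in NC replicate 3 and at most 0.174 FPKM elsewhere.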
